A study of Mus musculus with 8 samples.

Results

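Cells enriched for crypt and for villus of the mouse intestinal epithelium were compared in 2 control animals. The CD44-positive cells of each animal were set against the CD44-negative cells of the same animal. The comparison used 4 of the 8 RNA sequencing libraries of the series: 2 of the group control_CD44plus and 2 of the group control_CD44minus, chosen by group label and paired by the animal number that each table's name carries. The control animals were 6-week-old male mice carrying Sox4 alleles flanked by loxP sites (Sox4fl/fl) and no Cre recombinase. The other 4 libraries came from male littermates of the same age, Sox4fl/fl:vilCre+/- (Sox4cKO), in which villin-Cre targets Sox4 in the gut epithelium, and they enter a single test at the end. Cells positive for the epithelial surface protein CD326 (Epcam) were sorted on CD44, 50000 cells per library, so that CD44plus cells are enriched for the crypt and CD44minus cells for the villus. A gate on a surface protein enriches and does not isolate, and a library pools all cell types that pass it. The region of the intestine is not given in the labels.

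The lining of the small intestine is renewed continuously. Stem cells at the crypt base, kept by Wnt signals, give rise to rapidly dividing progenitors, which leave the cycle as they move onto the villus and become absorptive enterocytes or secretory cells. Secretory cells are the mucus-making goblet cells, the hormone-releasing enteroendocrine cells, the chemosensory tuft cells and the Paneth cells, which stay at the crypt base and release antimicrobial proteins. Enterocytes carry the brush border, a carpet of microvilli loaded with digestive enzymes and nutrient transporters, and export dietary fat in lipoprotein particles. CD44 is a hyaluronan receptor and a Wnt target of crypt cells, and many lymphocytes carry it too.

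Promoter sequences of genes from both ends of this axis are shown first, to set the letters beside the levels that follow. Windows run from 250 bases before to 50 bases after the start of each gene (RefSeq, GRCm38.p6), both strands were searched, and 1 window was used per gene. Of 25 windows of DNA replication and licensing genes, 10 (40%) held a motif of E2F, the factor family that drives entry into S phase (TTTGGCGC, TTTCCCGC, TTTCGCGC or TTTGCCGC), beside 2.32% of all 27025 windows and 3.37% of the 13810 windows of genes tested. Of 27 windows of mitosis genes, 20 (74.1%) held the cell cycle homology region, CHR (TTTGAA or TTCGAA), beside 19.4% of all windows and 15% of those of genes tested, and 22 (81.5%) held a CCAAT box, beside 37.9 and 38.2%. E2F matches were found in 1 of the 27 mitosis windows (3.7%), and CHR matches in 6 of the 25 replication windows (24%). A motif of HNF4, a nuclear receptor of enterocytes (CAAAGTCCA, CAAAGGTCA or CAAAGTTCA), was present in 2 of 14 windows of brush border hydrolase genes (14.3%) and in 2 of 15 of fat absorption genes (13.3%), beside 1.32% of all windows and 1.24% of those of genes tested. A motif of CDX, the intestinal homeobox factors (TTTATG; also TTTATT; also TTTACG), was present in 5 of the 14 (35.7%) and 6 of the 15 (40%), beside 30.5 and 21.3%. The next lines give the 200 bases before the start of 6 of these genes, with matches in capitals: E2F in Mcm5, CHR and CCAAT boxes in Mki67, Ccnb2 and Top2a, and HNF4 in Alpi and Treh.
Mcm5 (chr8:75109309-75109508, plus strand): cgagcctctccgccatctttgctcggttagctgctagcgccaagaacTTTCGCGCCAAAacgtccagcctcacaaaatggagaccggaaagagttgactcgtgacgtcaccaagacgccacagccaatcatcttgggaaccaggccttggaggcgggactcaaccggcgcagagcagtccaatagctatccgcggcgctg
Mki67 (chr7:135716380-135716579, minus strand): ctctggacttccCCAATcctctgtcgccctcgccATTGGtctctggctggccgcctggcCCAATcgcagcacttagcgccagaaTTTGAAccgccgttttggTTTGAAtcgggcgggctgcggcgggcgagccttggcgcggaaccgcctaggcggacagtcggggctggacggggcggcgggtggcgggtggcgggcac
Ccnb2 (chr9:70421555-70421754, minus strand): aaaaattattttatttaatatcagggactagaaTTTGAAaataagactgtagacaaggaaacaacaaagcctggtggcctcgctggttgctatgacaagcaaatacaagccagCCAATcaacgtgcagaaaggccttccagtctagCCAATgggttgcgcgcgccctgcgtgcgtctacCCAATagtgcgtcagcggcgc
Top2a (chr11:99024190-99024389, minus strand): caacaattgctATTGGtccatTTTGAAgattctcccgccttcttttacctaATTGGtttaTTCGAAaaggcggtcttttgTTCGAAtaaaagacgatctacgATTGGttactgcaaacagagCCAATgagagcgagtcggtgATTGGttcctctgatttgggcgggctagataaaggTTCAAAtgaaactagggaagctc
Alpi (chr1:87101607-87101806, minus strand): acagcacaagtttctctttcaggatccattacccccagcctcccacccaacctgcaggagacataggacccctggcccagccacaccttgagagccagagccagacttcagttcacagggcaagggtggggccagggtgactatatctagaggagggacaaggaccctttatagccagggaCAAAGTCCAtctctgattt
Treh (chr9:44673033-44673232, plus strand): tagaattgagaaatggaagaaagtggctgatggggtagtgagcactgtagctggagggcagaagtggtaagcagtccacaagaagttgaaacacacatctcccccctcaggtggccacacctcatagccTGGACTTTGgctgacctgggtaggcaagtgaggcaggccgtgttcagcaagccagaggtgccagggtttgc

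The 2 matches in Mcm5 lie 153 to 146 and 149 to 142 bases before the start and overlap on opposite strands. The match in Alpi lies 19 to 11 bases before the start and that in Treh 71 to 63 bases before it, on the other strand. A match describes the letters only and does not show a bound factor.

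The libraries differed in depth and in how much of it was signal. CD44minus libraries held 886194 and 2327002 reads counted to genes and CD44plus libraries 12249272 and 6007554, given for animal 1 and then animal 2, an order kept for all pairs of values. Of uniquely placed reads, 96.3 and 92.0% in CD44minus and 77.8 and 74.5% in CD44plus were counted to no gene. Smell and pheromone receptor genes, which gut cells are not known to use widely, took 3535 and 1325 CPM (reads scaled to a fixed library total) in CD44minus and 282.5 and 265.0 CPM in CD44plus. Their reads per kilobase of coding sequence served as a measure of background, which then predicts 16.7 and 6.25% of gene reads in CD44minus and 1.33 and 1.25% in CD44plus. This background moved with the gate, so its part in any low-level gene that read higher in CD44minus cannot be told apart from the gate itself. Levels below are CPM after TMM scaling, and with 2 animals each p-value rests on few samples.

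Of 18006 genes tested, 3512 (19.5%) were higher in CD44plus, 5455 (30.3%) were lower and 8967 (49.8%) changed in either direction. The threshold was an adjusted p of 0.05 in edgeR's quasi-likelihood test. Both CD44plus libraries lay above both CD44minus libraries for 7028 genes, the reverse held for 7506, and 3472 overlapped. Groups are called separate below where they do not overlap. The 2 directions differed in how far reads stood above background. All 3495 genes with a known length that were called higher had CD44plus reads above the predicted background in both libraries. By the same measure 3902 of the 5374 called lower (72.6%) had CD44minus reads above it in both. Above means that the lower limit of a 95% counting interval exceeded the prediction. The CD44plus libraries held more reads counted to genes, so this measure was easier to pass there. Where a gene called higher had CD44minus reads near the predicted background, the size of its fold change is uncertain. Of the 5374 called lower, the CD44minus reads were a median of 2.99 and 3.28 times the predicted background, and 420 genes (7.82%) reached 8 times in both libraries, a limit chosen after seeing these values. These ratios, here and below, have 0.5 added to both the reads and the predicted background. With nothing added, chosen after seeing the data, the medians were 3.18 and 3.51 times and 496 genes (9.23%) reached the limit. Of 1415 receptor genes, 112 passed the filter on low counts and were tested. Of these, 81 were called lower, with a median log2 fold change of -3.06. Receptor levels were higher in CD44minus, so that gate could carry them past the filter. Their reads also set the predicted background, so this direction is no separate support. With the predicted background subtracted, 3239 genes were higher and 3095 lower. Of all calls, 39.2% were higher in CD44plus, against 51.1% with the predicted background subtracted and 50.6% with no filter on low counts.

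**Figure D1:**
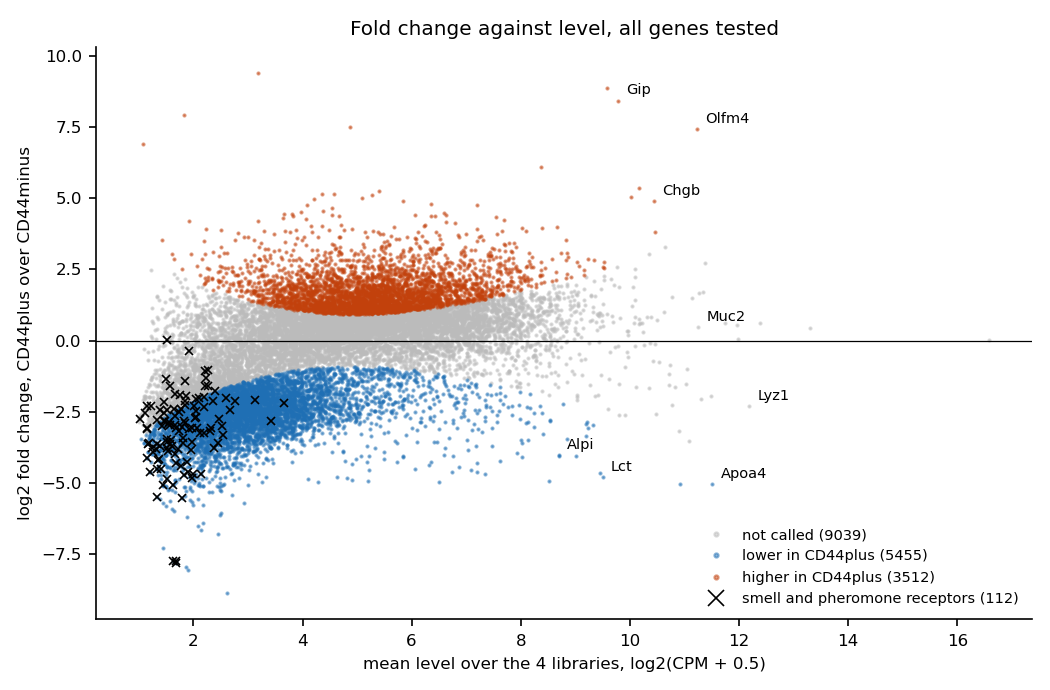
Log2 fold change (CD44plus over CD44minus, control animals) against mean level over the 4 libraries on a log2 CPM scale, 1 point per gene tested, coloured by call, with smell and pheromone receptor genes as crosses. The receptors lie among the low-level genes called lower, whereas Olfm4, Gip, Alpi and Apoa4 lie at high levels.

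The animals differed in scale within the CD44minus gate. For 58 genes at a mean of 1000 CPM or more, the median log2 ratio of animal 1 over animal 2 was -0.99 in CD44minus and 0.16 in CD44plus, and for 6367 genes under 10 CPM it was 0.62 and 0.30. Abundant genes carry large standard errors, and several with separate groups missed the threshold. Scaling moved the median log2 fold change of all genes from -0.04 to -0.40 with plain totals, to -0.66 with upper quartile factors and to -0.75 with TMM on genes of 100 CPM or more, the last chosen after seeing the data. The share of calls that were higher fell from 39.2% to 20.1% with upper quartile factors and to 21% with TMM on the abundant genes. Changes below are to be read relative to that shift. A fit of all 8 libraries without the animal as a block called 411 genes higher and 91 lower, and with the animal as a block 1506 and 2153. Leaving out the CD44minus library of animal 1 gave 5193 higher and 2911 lower, and that of animal 2 6194 and 4325. Leaving out the CD44plus library of animal 1 gave 1484 and 3512, and that of animal 2 1426 and 2230. Counts given below as without each library follow this order. Those fits had no animal block, and the lone library of a gate was taken to vary like the other gate.

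**Figure D2:**
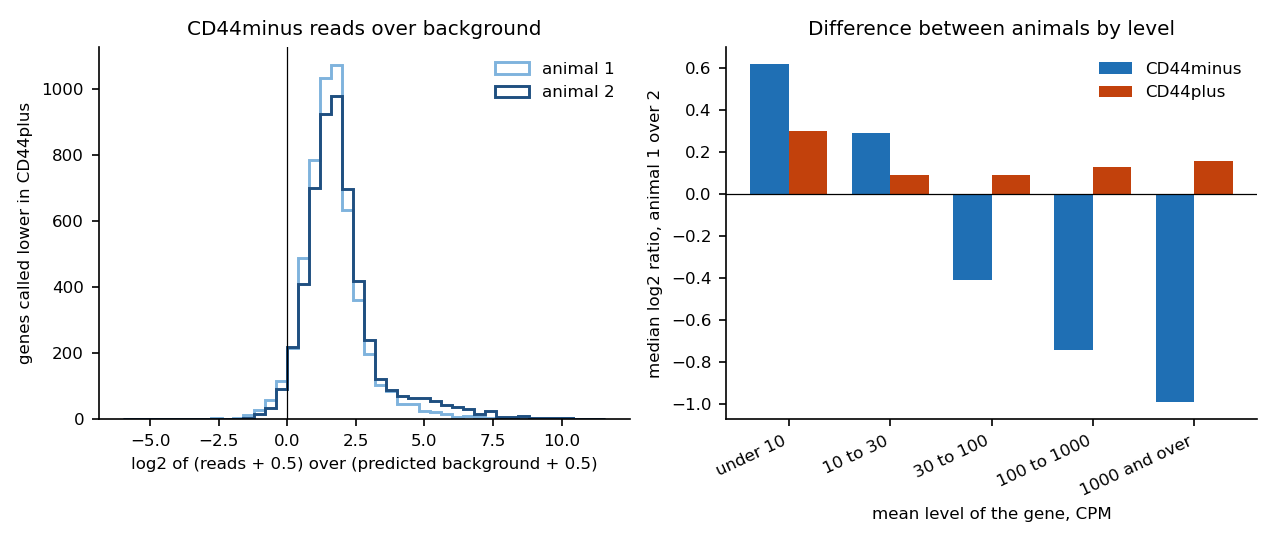
Left, log2 ratio of CD44minus reads to predicted background reads, with 0.5 added to both, for genes called lower in CD44plus, 1 outline per animal, which overlap for most of their width. Right, median log2 ratio of animal 1 over animal 2 by mean level of the gene in CPM, 1 bar per gate; in CD44minus it runs from 0.62 under 10 CPM to -0.99 at 1000 CPM and over.

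The antigens of the sort came first. Cd44 was read at 29.4 and 18.7 CPM in CD44minus and 266 and 270.1 in CD44plus (log2 fold change 3.52, SE 0.70, adjusted p = 7.73e-06), and the groups did not overlap. Epcam, the antigen common to both gates, was at 633 and 1119 CPM in CD44minus and 1481 and 1378 in CD44plus (log2 fold change 0.76, SE 1.27, adjusted p = 0.63), with separate groups that did not pass the test. Without each library, 2, 2, 1 and 1 of both antigens were called higher. A lower level in one gate can mean fewer cells of a type or less RNA per cell, which bulk libraries cannot tell apart.

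Crypt base stem cell genes were higher in the CD44plus cells. Of 22 listed and tested, 19 were called higher and 1 lower, beside 19.5 and 30.3% of all genes. The median log2 fold change was 2.86, beside -0.04 over all genes tested. Lgr5, the Wnt-amplifying receptor that marks cycling stem cells, was at 21.8 and 10.5 CPM in CD44minus and 98.5 and 99.7 in CD44plus (log2 fold change 2.71, SE 0.50, adjusted p = 2.01e-06). Olfm4, a secreted glycoprotein of stem cells (chr14:79984081-80023139, plus strand), was at 18.5 and 39.2 CPM in CD44minus and 4687 and 4881 in CD44plus (log2 fold change 7.44, SE 2.25, adjusted p = 0.0036). Both CD44plus libraries lay far above both CD44minus libraries for Olfm4, and the 2 CD44plus animals differed little. Ascl2, the transcription factor that sets stem cell identity, was at 6.72 and 3.19 CPM in CD44minus and 23 and 23.9 in CD44plus (log2 fold change 2.34, SE 0.53, adjusted p = 8.62e-05). Igfbp4, which binds insulin-like growth factors, had a log2 fold change of 3.52 (SE 0.52), Rgmb, a BMP co-receptor, 3.26 (SE 0.58), and Lrig1, a brake on EGF receptors, 2.83 (SE 0.70). Slc12a2, the chloride-loading cotransporter of crypt cells, was at 49.6 and 73.4 CPM in CD44minus and 2269.5 and 1774 in CD44plus (log2 fold change 5.04, SE 1.45, adjusted p = 0.0022). The exception was Fstl1, a secreted protein made mainly by mesenchyme, at 21 and 11.4 CPM in CD44minus and 3.18 and 2.19 in CD44plus, where the CD44minus reads were 3.08 and 3.13 times the predicted background.

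**Figure D3:**
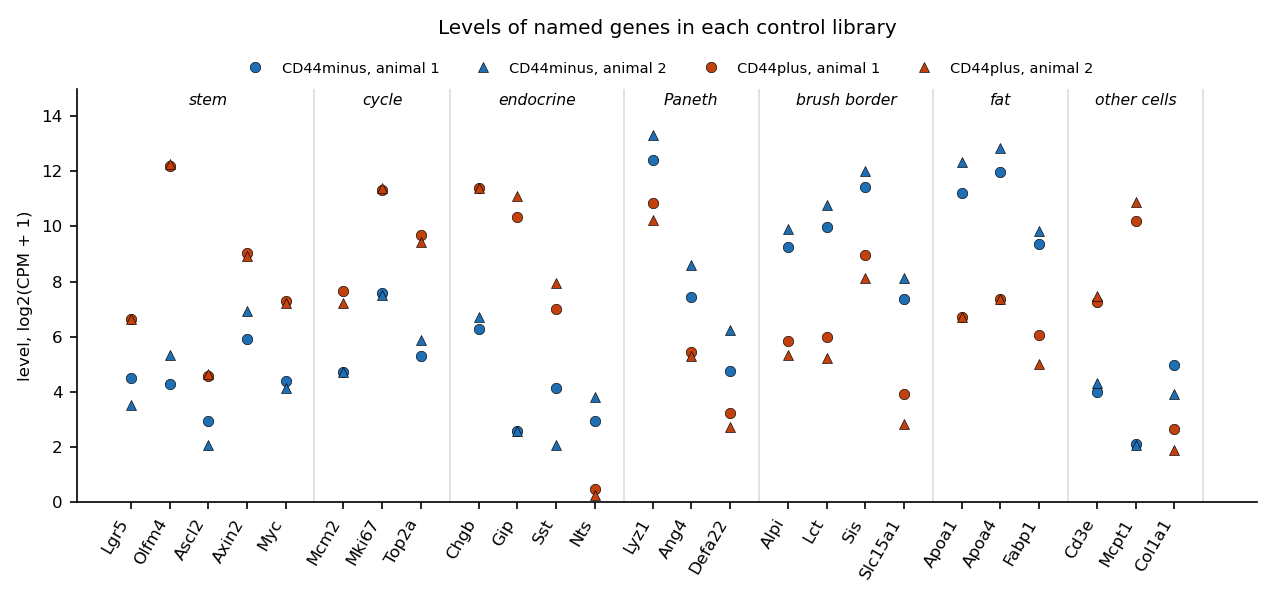
Level of named genes in each control library as log2(CPM + 1); colour gives the gate and shape the animal, with no averaging. Stem cell, cell cycle and Chgb points of CD44plus lie above CD44minus, brush border, fat and Paneth points lie below, and Nts and Col1a1 run against the neighbouring genes of their panels.

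Of 7 reserve stem and fetal-like genes tested, 2 were higher (28.6%) and 1 lower (14.3%; 3, 2, 1 and 2 higher and 0, 1, 1 and 0 lower without each library). The shares over all genes tested were 19.5% higher and 30.3% lower. Bmi1, a Polycomb protein, was higher (16 and 10.03 CPM in CD44minus and 39.1 and 32.1 in CD44plus). Hopx, a homeodomain cofactor, was also higher (14.3 and 25.1 CPM in CD44minus and 85.6 and 86.2 in CD44plus). Tert, the catalytic part of telomerase, was at 17.6 and 5.93 CPM in CD44minus and 18.9 and 12.6 in CD44plus and did not pass the test (adjusted p = 0.33).

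Wnt target and feedback genes were mostly higher, with 11 of 18 tested called higher, 3 lower and a median log2 fold change of 1.76. Over all genes tested, 19.5% were higher and 30.3% lower. With each library left out in turn there were 11, 12, 7 and 7 higher. Axin2, a feedback inhibitor read as a report of Wnt activity, was at 58.8 and 120.4 CPM in CD44minus and 528 and 489 in CD44plus (log2 fold change 2.58, SE 0.84, adjusted p = 0.0069). Myc, which drives growth and ribosome production, was at 20.2 and 16.4 CPM in CD44minus and 156 and 150.1 in CD44plus (log2 fold change 3.07, SE 0.57, adjusted p = 2.22e-06). Sox9, a transcription factor of crypt cells, was at 114 and 86.7 CPM in CD44minus and 453 and 413 in CD44plus (log2 fold change 2.12, SE 0.78, adjusted p = 0.017). Tcf7, a nuclear partner of beta-catenin, was at 15.1 and 10.9 CPM in CD44minus and 48.2 and 71.6 in CD44plus. In each of these 4 genes both CD44plus libraries were above both CD44minus libraries. The 3 that were lower are secreted or feedback components. Nkd1 was at 32.8 and 28.3 CPM in CD44minus and 8.97 and 9.13 in CD44plus. Dkk2 was at 22.7 and 17.3 CPM in CD44minus and 2.90 and 2.74 in CD44plus. Tdgf1 was at 17.6 and 3.19 CPM in CD44minus and 1.16 and 0.73 in CD44plus. Their CD44minus reads were 4.45 and 7.15, 3.39 and 4.82 and 4.81 and 1.70 times the predicted background, and 0 of the 3 cleared the limit of 8 in both libraries. Mmp7, a Wnt target also used as a Paneth cell gene, was at 92.4 and 246 CPM in CD44minus and 122 and 173 in CD44plus, and its groups overlapped (adjusted p = 0.94).

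Genes of the dividing cell were higher nearly throughout. Of 33 replication and licensing genes tested, 31 were called higher and 0 lower, beside 19.5 and 30.3% of all genes. Their median log2 fold change was 2.27. For all 33 both CD44plus libraries lay above both CD44minus libraries, as for 7028 of all 18006 genes tested. Leaving out each library in turn gave 32, 29, 20 and 24 higher. Mcm2, a subunit of the helicase that opens DNA, was at 25.2 and 25.5 CPM in CD44minus and 199 and 149 in CD44plus (log2 fold change 2.75, SE 0.59, adjusted p = 3.70e-05), and Mcm4 of the same complex at 10.1 and 5.93 CPM in CD44minus and 172 and 153 in CD44plus (log2 fold change 4.39, SE 0.63, adjusted p = 9.21e-10). Mcm5, whose promoter is printed above, was at 21 and 14.1 CPM in CD44minus and 164 and 146 in CD44plus. Pcna, the sliding clamp of the polymerases, was at 12.6 and 15.5 CPM in CD44minus and 69.2 and 67.7 in CD44plus. Rrm2, which makes deoxynucleotides, was at 5.88 and 10.03 CPM in CD44minus and 70.1 and 55.5 in CD44plus. Pola1, the polymerase that starts new strands, was at 15.1 and 9.12 CPM in CD44minus and 129 and 96.8 in CD44plus. Each of these 6 genes was called higher, by log2 fold changes from 2.27 for Pcna to 4.39 for Mcm4. CD44minus reads were 1.59 and 1.74 times the predicted background for Mcm4, 1.61 and 1.81 for Pola1 and 4.29 and 9.67 for Pcna.

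Of 34 mitosis genes tested, 33 were higher and 0 lower (median 2.48), beside 19.5 and 30.3% of all genes. Groups were again separate for all 34. Mki67, a coat protein of mitotic chromosomes, was at 189.9 and 180.2 CPM in CD44minus and 2594 and 2675 in CD44plus (log2 fold change 3.83, SE 1.52, adjusted p = 0.027). Top2a, which untangles chromosomes, was at 38.6 and 57.9 CPM in CD44minus and 833 and 691 in CD44plus (log2 fold change 3.99, SE 0.99, adjusted p = 3.71e-04). Ccnb2, a mitotic cyclin, was at 8.40 and 5.93 CPM in CD44minus and 98.4 and 81.3 in CD44plus (log2 fold change 3.67, SE 0.53, adjusted p = 7.24e-10). Cenpa, the histone variant of centromeres, rested on 1 and 10 reads in CD44minus and 428 and 306 in CD44plus, with a log2 fold change of 4.07 (SE 0.54). Ube2c, which tags mitotic proteins for destruction, was at 9.24 and 8.21 CPM in CD44minus and 115 and 105 in CD44plus. In CD44minus, Mki67 reads were 10.7 and 19 times the predicted background.

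Replication-dependent histone genes had the highest median of the lists, 3.76. Of 52 tested, 50 were higher and 1 lower, beside 19.5 and 30.3% of all genes. The lower one was Hist1h1t, a linker histone of the testis, at 18.5 and 14.6 CPM in CD44minus and 4.05 and 1.28 in CD44plus, and it was called in all fits that left out 1 library except that without the CD44plus library of animal 2. Hist1h2ae, a gene of histone H2A, was at 2.52 and 1.82 CPM in CD44minus and 77.1 and 85.5 in CD44plus (log2 fold change 5.27, SE 0.61, adjusted p = 5.25e-15). Hist1h2an was at 0.84 and 0 CPM in CD44minus and 46.3 and 67.7 in CD44plus, from 1 and 0 reads in CD44minus and 480 and 371 in CD44plus. Histone genes are near-identical copies, so reads could be split among them or dropped. The libraries were made from total RNA, which keeps histone transcripts without a poly(A) tail.

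Of 11 tested G1 cyclins, their kinases and CDK inhibitors, 7 were higher and 1 lower (median 1.41), beside 19.5 and 30.3% of all genes. The counts without each library were 7, 7, 4 and 4 higher and 2, 1, 1 and 0 lower. Ccnd1, a cyclin that opens the cycle, was at 21 and 43.3 CPM in CD44minus and 228 and 193 in CD44plus. Ccnd2 of the same family was at 63 and 92.1 CPM in CD44minus and 506 and 425 in CD44plus. Their kinases Cdk4 and Cdk6 had log2 fold changes of 2.47 (SE 0.49) and 3.21 (SE 0.53). CD44minus reads were 3.71 and 8.71 times the predicted background for Cdk4 and 0.64 and 1.07 times for Cdk6. Cdkn2b, the inhibitor p15 that blocks those kinases, went the other way, at 55.4 and 112 CPM in CD44minus and 23.2 and 13.1 in CD44plus (log2 fold change -2.18, SE 0.45, adjusted p = 2.23e-05), with CD44minus reads 19.8 and 74.5 times the predicted background. Cdkn1a, the inhibitor p21, was at 31.9 and 78 CPM in CD44minus and 42.4 and 25.4 in CD44plus and did not pass the test (adjusted p = 0.19). Its value in CD44minus animal 2 was the highest of the 4, and the groups overlapped.

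Of 23 ribosome biogenesis genes tested, 21 were higher and 0 lower (median 2.36), beside 19.5 and 30.3% of all genes. Npm1, the nucleolar chaperone nucleophosmin, was at 25.2 and 57.9 CPM in CD44minus and 401 and 448 in CD44plus (log2 fold change 3.44, SE 0.81, adjusted p = 1.65e-04). Dkc1, which modifies ribosomal RNA, was at 4.20 and 11.9 CPM in CD44minus and 112 and 88.9 in CD44plus (log2 fold change 3.57, SE 0.53, adjusted p = 3.24e-09). Ncl, the nucleolar protein nucleolin, was at 233 and 339.8 CPM in CD44minus and 2359 and 2261 in CD44plus, with separate groups, but missed the threshold (adjusted p = 0.063). Of 77 ribosomal protein genes tested, 62 were higher and 1 lower (median 2.38), and without each library 61, 66, 49 and 41 higher and 0, 1, 1 and 0 lower. Rps10 was at 6.72 and 10.03 CPM in CD44minus and 80.5 and 83.6 in CD44plus. Rpl10a was at 3.36 and 5.02 CPM in CD44minus and 38.4 and 36.5 in CD44plus, while the member that was lower was Rpl3l, a paralog best known from muscle, at 17.6 and 9.12 CPM in CD44minus and 5.79 and 0.548 in CD44plus. Reads of ribosomal protein genes are shared with many processed copies and are uncertain for single genes. Of 73 respiratory chain subunits, 16 were higher and 1 lower (median 0.83), a share near the 19.5% of all genes, and 6 were higher with the predicted background subtracted. In the fits without each library there were 35, 67, 6 and 2 higher and 1, 1, 1 and 0 lower. The member that was lower was Cox7a1, an isoform best known from muscle, at 34.4 and 40.1 CPM in CD44minus and 12.5 and 8.03 in CD44plus.

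Among 18 DNA methylation and Polycomb genes tested, 7 were higher and 1 lower (median 0.79), beside 19.5 and 30.3% of all genes. Without each library the counts were 10, 12, 5 and 3 higher and 0, 1, 0 and 0 lower. Dnmt1, which copies methylation at replication, was at 49.6 and 73.4 CPM in CD44minus and 527 and 492 in CD44plus, and its partner Uhrf1 at 14.3 and 12.3 CPM in CD44minus and 146 and 110.1 in CD44plus (log2 fold change 3.25, SE 0.55, adjusted p = 1.75e-07). Ezh2, the histone methyltransferase of Polycomb, was at 24.4 and 32.8 CPM in CD44minus and 117 and 136 in CD44plus. Tet1, which oxidises methylcytosine, was lower, at 58 and 34.2 CPM in CD44minus and 20.5 and 16.6 in CD44plus, with CD44minus reads 2.32 and 2.56 times the predicted background.

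Notch and secretory progenitor genes were higher in 12 of 21 tested and lower in 0 (median 1.18), beside 19.5 and 30.3% of all genes. With each library left out in turn there were 15, 12, 5 and 5 higher. The receptor Notch1 was at 51.2 and 36.5 CPM in CD44minus and 335 and 297 in CD44plus (log2 fold change 2.87, SE 0.72, adjusted p = 4.16e-04), its target Hes1, a repressor of the secretory fate, at 15.1 and 21.4 CPM in CD44minus and 105 and 87.6 in CD44plus (log2 fold change 2.37, SE 0.49, adjusted p = 1.88e-05), and its ligand Dll1, shown by secretory progenitors, at 47.9 and 62.9 CPM in CD44minus and 156 and 147 in CD44plus (log2 fold change 1.46, SE 0.56, adjusted p = 0.022). The fringe enzyme Lfng, which tunes Notch, had a log2 fold change of 2.54 (SE 0.46). Spdef, which matures goblet and Paneth cells, was at 16.8 and 34.2 CPM in CD44minus and 76.4 and 67.6 in CD44plus. Sox4, the gene that villin-Cre targets in the other animals, was at 8.40 and 9.58 CPM in CD44minus and 139 and 120.2 in CD44plus (log2 fold change 3.82, SE 0.57, adjusted p = 3.62e-09). In control animals its CD44plus reads were 1438 and 658, against 10 and 21 in CD44minus. Those in CD44minus were 1.015 and 2.11 times the predicted background. Scaled over all 8 libraries, the CD44minus libraries labelled Sox4cKO were at 1.98 and 0.272 CPM and the CD44plus libraries at 17.8 and 25.7 CPM, above 0. The control libraries were higher in each gate, at 6.74 and 8.26 CPM in CD44minus and 128.5 and 120.2 CPM in CD44plus.

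Enteroendocrine genes were higher in 19 of 30 tested and lower in 1 (median 1.5), beside 19.5 and 30.3% of all genes. Leaving out each library in turn gave 20, 19, 15 and 12 higher and 1, 0, 1 and 1 lower. Chga, a granin packed with hormones, was at 34.4 and 46.5 CPM in CD44minus and 684 and 566 in CD44plus. Chgb, its relative, was at 76.4 and 103 CPM in CD44minus and 2703 and 2669 in CD44plus (log2 fold change 4.92, SE 1.60, adjusted p = 0.0069). Gip, the incretin hormone of the upper gut (chr11:96024545-96030831, plus strand), was at 5.04 and 5.02 CPM in CD44minus and 1309 and 2197 in CD44plus (log2 fold change 8.44, SE 1.66, adjusted p = 6.50e-06), and its CD44minus reads were 6 and 11. Sst, the inhibitory hormone somatostatin, was at 16.8 and 3.19 CPM in CD44minus and 127 and 247 in CD44plus (log2 fold change 4.41, SE 0.68, adjusted p = 1.15e-08). Tac1, the precursor of substance P, was at 5.04 and 4.11 CPM in CD44minus and 45.4 and 41.6 in CD44plus. For Gip and Sst the CD44plus library of animal 2 was the higher of the pair, and both lay above CD44minus. Nts, the hormone neurotensin, ran the other way at 6.72 and 13.2 CPM in CD44minus and 0.386 and 0.183 in CD44plus (adjusted p = 9.89e-06). Its reads were 8 and 29 in CD44minus and 4 and 1 in CD44plus. Those in CD44minus were 2.78 and 9.76 times the predicted background, short of 8 times in both libraries. Neurod1, a transcription factor of endocrine precursors, was at 15.1 and 23.7 CPM in CD44minus and 34.2 and 31 in CD44plus and did not pass the test (adjusted p = 0.12).

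Of 16 goblet cell genes tested, 4 were higher (25%) and 2 lower (12.5%; median 0.83), beside 19.5 and 30.3% of all genes. The counts without each library were 7, 11, 1 and 1 higher and 3, 1, 1 and 1 lower. The 2 lower were B3gnt6 and Capn9. B3gnt6, which extends mucin sugars, was at 16 and 9.58 CPM in CD44minus and 1.64 and 1.10 in CD44plus. Capn9, a calpain protease, was at 18.5 and 16 CPM in CD44minus and 7.43 and 8.58 in CD44plus. CD44minus reads were 3.63 and 4.06 times the predicted background for B3gnt6 and 4.26 and 6.82 times for Capn9. Of these 2, 0 reached 8 times in both libraries. Muc2, the gel-forming mucin, was at 1135 and 3265 CPM in CD44minus and 2565 and 2792 in CD44plus, and the groups overlapped (adjusted p = 0.83). Fcgbp, a mucus protein, was at 1728 and 3831 CPM in CD44minus and 4797 and 3302 in CD44plus. Tff3, the trefoil peptide, was at 140.3 and 433 CPM in CD44minus and 701 and 806 in CD44plus. Fcgbp and Tff3 were short of the threshold (adjusted p = 0.81 and 0.16). Galnt12, an enzyme that starts mucin sugar chains, was higher (log2 fold change 1.86, SE 0.50, adjusted p = 0.0011), as was Creb3l1, a membrane-bound transcription factor (log2 fold change 1.93, SE 0.61, adjusted p = 0.0054). Among 21 tuft cell genes tested, 4 were higher (19%, beside 19.5% of all genes) and 3 lower (14.3%, beside 30.3%; median 0.51), and the sign of that median changed with the scaling. In the fits without each library there were 11, 5, 3 and 3 higher and 1, 3, 1 and 1 lower. Dclk1, the kinase most used to mark tuft cells, was at 27.7 and 17.8 CPM in CD44minus and 32.3 and 43.3 in CD44plus. Trpm5, the taste channel, was at 23.5 and 16 CPM in CD44minus and 36.6 and 32 in CD44plus. Neither passed the threshold (adjusted p = 0.11 and 0.083). Lrmp, an endoplasmic reticulum protein, was higher at 26 and 12.8 CPM in CD44minus and 55.7 and 84.7 in CD44plus. Chat, which makes acetylcholine, was lower at 35.3 and 26.5 CPM in CD44minus and 8.59 and 4.93 in CD44plus. Its CD44minus reads were 6.67 and 9.32 times the predicted background. Of the 3 tuft cell genes called lower, 0 reached 8 times in both libraries.

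Paneth cell genes read higher in the CD44minus cells. Paneth cells stay at the crypt base, so this list runs against the villus label of that gate. Of 14 tested of 18 in the tables, 0 were higher and 8 lower in CD44plus (median -2.19). The shares of all genes were 19.5 and 30.3%. Of those 8 genes, 7 had CD44minus reads at least 8 times the predicted background in both libraries. Lyz1, lysozyme, was at 5440.2 and 10149 CPM in CD44minus and 1862 and 1194 in CD44plus, with separate groups, but was not called (adjusted p = 0.41). Ang4, an antimicrobial ribonuclease, was at 175 and 389 CPM in CD44minus and 42.5 and 38.5 in CD44plus (log2 fold change -2.69, SE 0.68, adjusted p = 4.65e-04). The defensin Defa22 was at 26 and 73.9 CPM in CD44minus and 8.30 and 5.66 in CD44plus (log2 fold change -2.69, SE 0.44, adjusted p = 5.69e-08). Defa5 was at 13.4 and 32.8 CPM in CD44minus and 5.50 and 2.92 in CD44plus. Defa26 was at 13.4 and 26.5 CPM in CD44minus and 3.86 and 1.28 in CD44plus. Both were called lower. Without each library in turn 12, 9, 6 and 4 were lower. With TMM on genes of 100 CPM or more, 13 of the 14 were called lower. Defensin genes are near-identical copies, so values of single genes are uncertain.

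Brush border hydrolases were higher in CD44minus without exception among the 17 tested. For each of them both CD44minus libraries lay above both CD44plus libraries, as for 7506 of all 18006 genes tested. In the test 13 were called lower in CD44plus and 0 higher (median -3.39), beside 30.3 and 19.5% of all genes. Of the 13, 12 had CD44minus reads at least 8 times the predicted background in both libraries. Alpi, intestinal alkaline phosphatase (chr1:87098002-87101606, minus strand), was at 606 and 959.7 CPM in CD44minus and 56.3 and 39.1 in CD44plus (log2 fold change -4.02, SE 0.99, adjusted p = 3.27e-04). Lct, lactase, was at 1016 and 1775 CPM in CD44minus and 63.2 and 36.5 in CD44plus (log2 fold change -4.80, SE 1.25, adjusted p = 7.26e-04). Treh, which splits trehalose, was at 108 and 195 CPM in CD44minus and 7.53 and 6.21 in CD44plus (log2 fold change -4.38, SE 0.56, adjusted p = 4.48e-12). Ace, which trims peptides, was at 891 and 1799.8 CPM in CD44minus and 57.9 and 43.1 in CD44plus (log2 fold change -4.66, SE 1.22, adjusted p = 7.96e-04). Ggt1, which breaks down glutathione, had a log2 fold change of -4.69 (SE 0.75). Sis, sucrase-isomaltase, was at 2737 and 4142 CPM in CD44minus and 495 and 282 in CD44plus and missed the threshold (adjusted p = 0.1). Without each library in turn 17, 17, 7 and 5 were lower, and with TMM on genes of 100 CPM or more all 17 were called lower.

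Of 15 genes of the microvillus scaffold tested, 3 were lower and 0 higher (median -1.68). The share lower was below the 30.3% of all genes. Vil1, the actin bundler villin, was at 1363 and 2656 CPM in CD44minus and 663 and 529 in CD44plus. Myo1a, the motor that ties actin to the membrane, was at 1137 and 2264 CPM in CD44minus and 605 and 437 in CD44plus. Vil1 and Myo1a had separate groups and missed the threshold (adjusted p = 0.3 and 0.28). Pdzk1, a scaffold for transporters, fell from 130.2 and 221 CPM in CD44minus to 5.98 and 4.57 CPM in CD44plus (log2 fold change -4.98, SE 0.61, adjusted p = 2.67e-13), and Espn, another actin bundler, had a log2 fold change of -2.10 (SE 0.46). This count depended on scaling and on single libraries: 15, 10, 2 and 3 were lower without each library, 9 of 15 were lower with the predicted background subtracted and 15 of 15 with TMM on genes of 100 CPM or more.

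Of 28 nutrient and ion transporters tested, 20 were lower in CD44plus and 0 higher (median -2.23), beside 30.3 and 19.5% of all genes. Of the 20, 15 cleared 8 times the predicted background in both CD44minus libraries. Without each library in turn 22, 20, 15 and 10 were lower. Slc15a1, the carrier of small peptides, was at 165 and 279.6 CPM in CD44minus and 14.3 and 6.21 in CD44plus (log2 fold change -4.46, SE 0.66, adjusted p = 2.10e-09). Slc2a2, which lets glucose out to the blood, was at 155 and 208 CPM in CD44minus and 16.6 and 6.94 in CD44plus (log2 fold change -4.02, SE 0.60, adjusted p = 3.09e-09). Slc2a5, which takes up fructose, was at 65.5 and 76.6 CPM in CD44minus and 12.4 and 9.86 in CD44plus. Slc46a1, which takes up folate, was at 36.1 and 52.9 CPM in CD44minus and 3.38 and 6.03 in CD44plus. Slc6a20a, a carrier of proline, had a log2 fold change of -3.32 (SE 0.48). Slc5a1, the sodium-glucose cotransporter, was at 1089 and 1991 CPM in CD44minus and 271 and 209 in CD44plus, with separate groups and an adjusted p of 0.06.

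Fat absorption genes gave 15 of 21 lower and 0 higher (median -2.64), beside 30.3 and 19.5% of all genes. Of the 15, 14 cleared 8 times the predicted background. Without each library in turn 20, 18, 6 and 5 were lower. Apoa1, an apolipoprotein of lipoprotein particles, was at 2347 and 5157 CPM in CD44minus and 105 and 105 in CD44plus. Apoa4, an apolipoprotein of chylomicrons, was at 3989 and 7363 CPM in CD44minus and 163 and 166 in CD44plus. Their log2 fold changes were -5.05 (SE 1.83) and -5.04 (SE 2.15), with adjusted p of 0.015 and 0.04. Fabp1, which carries fatty acids in the cytosol, was at 660.3 and 908 CPM in CD44minus and 65.8 and 31.6 in CD44plus (log2 fold change -4.08, SE 1.00, adjusted p = 3.08e-04). Apoc3, which slows the clearance of triglyceride, was at 42 and 48.3 CPM in CD44minus and 5.40 and 2.19 in CD44plus (log2 fold change -3.60, SE 0.45, adjusted p = 6.74e-13). Dgat2, which completes triglyceride, was at 73.9 and 127 CPM in CD44minus and 17.8 and 13.5 in CD44plus. Apob, the structural protein of the chylomicron, was at 2157 and 3629 CPM in CD44minus and 684 and 499 in CD44plus, with separate groups, and was not called (adjusted p = 0.21).

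All 12 cytochrome P450 genes tested were lower in CD44plus (median -3.21), beside 30.3% of all genes, and 9 of the 12 cleared 8 times the predicted background. Without each library in turn 11, 10, 8 and 4 were lower. Cyp3a25, of the family that oxidises drugs and bile acids, was at 71.4 and 145 CPM in CD44minus and 8.59 and 3.65 in CD44plus. Cyp3a13 of the same family was at 154 and 227 CPM in CD44minus and 25.9 and 23.7 in CD44plus. Cyp2b10, induced through the receptor Nr1i3, was at 55.4 and 42.9 CPM in CD44minus and 3.67 and 2.74 in CD44plus (log2 fold change -3.93, SE 0.45, adjusted p = 4.49e-15). Nr1i3 was itself lower, at 30.2 and 42.9 CPM in CD44minus and 4.92 and 4.57 in CD44plus (log2 fold change -2.92, SE 0.45, adjusted p = 7.89e-09).

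Of 27 enterocyte and gut transcription factors tested, 4 were higher and 4 lower (14.8% each, beside 19.5 and 30.3% of all genes; median 0.15, of either sign depending on scaling). Without each library the counts were 9, 12, 0 and 0 higher and 10, 6, 3 and 1 lower. Hnf4a was at 343 and 614 CPM in CD44minus and 1015 and 779 in CD44plus. Hnf4g was at 297 and 392 CPM in CD44minus and 159 and 143 in CD44plus. Cdx2, the homeobox factor of intestinal identity, was at 65.5 and 133 CPM in CD44minus and 148 and 136 in CD44plus. None of the 3 passed the threshold. Creb3l3 and Maf were among the 4 lower. Creb3l3, a membrane-bound regulator of lipid genes, was at 255 and 397 CPM in CD44minus and 38 and 14.8 in CD44plus (log2 fold change -3.72, SE 0.74, adjusted p = 8.89e-06). Maf, a leucine zipper factor, was at 159 and 375 CPM in CD44minus and 31 and 25.7 in CD44plus (log2 fold change -3.11, SE 0.67, adjusted p = 4.19e-05). Foxa1, Foxa2 and Foxa3, pioneer factors, had log2 fold changes of 1.39 (SE 0.48), 1.17 (SE 0.43) and 1.35 (SE 0.43), all called higher.

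Villus tip genes gave 5 of 10 lower (50%, beside 30.3% of all genes) and 2 higher (20%, beside 19.5%; median -1.26). With each library left out in turn there were 2, 2, 0 and 1 higher and 6, 5, 3 and 2 lower. Xdh, which ends purine breakdown, was at 538 and 1162 CPM in CD44minus and 72 and 70.7 in CD44plus (log2 fold change -3.47, SE 1.00, adjusted p = 0.0022). Ada, which deaminates adenosine, was at 23.5 and 62.9 CPM in CD44minus and 9.26 and 10.04 in CD44plus (log2 fold change -2.04, SE 0.42, adjusted p = 2.04e-05). Enpp3, a nucleotide hydrolase, was at 46.2 and 66.1 CPM in CD44minus and 9.75 and 12.4 in CD44plus. Nt5e, which makes extracellular adenosine, was higher at 23.5 and 12.3 CPM in CD44minus and 24.9 and 44.2 in CD44plus (adjusted p = 0.046). Egfr, the EGF receptor, was higher at 26.9 and 33.3 CPM in CD44minus and 107 and 80.7 in CD44plus (log2 fold change 1.62, SE 0.48, adjusted p = 0.003).

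Of 12 fluid secretion genes tested, 4 were higher and 4 lower (33.3% each, beside 19.5 and 30.3% of all genes), and 2 of the 4 lower cleared 8 times the predicted background in both CD44minus libraries. Leaving out each library in turn gave 6, 7, 3 and 4 higher and 4, 2, 0 and 0 lower. Besides Slc12a2, the potassium channel Kcnq1 and its subunit Kcne3, which recycle potassium during chloride secretion, were higher. Kcnq1 was at 38.6 and 34.7 CPM in CD44minus and 323 and 276 in CD44plus. Kcne3 was at 22.7 and 12.8 CPM in CD44minus and 152 and 127 in CD44plus. Guca2b, uroguanylin, was lower at 223 and 419 CPM in CD44minus and 77.3 and 68.5 in CD44plus (log2 fold change -2.07, SE 0.71, adjusted p = 0.01). Car4, a carbonic anhydrase, was called lower at 22.7 and 75.7 CPM in CD44minus and 17.6 and 25.6 in CD44plus with overlapping groups, and its log2 fold change was 0.04 without the CD44minus library of animal 2. The water channel Aqp8 was called lower from 5 and 7 reads in CD44minus, at 1.55 and 2.14 times the predicted background. Guca2a, guanylin, was at 108 and 294 CPM in CD44minus and 368 and 462 in CD44plus (adjusted p = 0.2). Cftr, the chloride channel that both peptides activate through their receptor, was at 147 and 192 CPM in CD44minus and 541 and 402 in CD44plus, with separate groups, and missed the threshold (adjusted p = 0.12). Among 18 tight junction genes, 2 were higher and 2 lower (11.1% each), and without each library 3, 11, 0 and 1 higher and 2, 2, 1 and 0 lower. The shares over all genes tested were 19.5% higher and 30.3% lower. Cldn2, the claudin that forms cation pores, was higher at 37.8 and 60.2 CPM in CD44minus and 227 and 173 in CD44plus (log2 fold change 2.03, SE 0.61, adjusted p = 0.0036). Cldn23 was lower at 50.4 and 85.3 CPM in CD44minus and 26.2 and 25.4 in CD44plus. Cldn15 was at 159 and 261 CPM in CD44minus and 239 and 199 in CD44plus with overlapping groups.

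Of 14 mucosal defence genes tested, 5 were lower (35.7%, beside 30.3% of all genes) and 1 higher. The counts without each library were 11, 4, 4 and 3 lower and 1, 6, 1 and 1 higher. Reg1 was at 244 and 321 CPM in CD44minus and 52.2 and 29 in CD44plus (log2 fold change -2.84, SE 0.68, adjusted p = 2.24e-04). Reg3a was at 41.2 and 34.2 CPM in CD44minus and 6.95 and 5.48 in CD44plus. Il18, an inflammasome cytokine, was at 50.4 and 57.5 CPM in CD44minus and 6.66 and 10.4 in CD44plus (log2 fold change -2.68, SE 0.42, adjusted p = 1.17e-08). All 3 were lower. Reg3b, a lectin of mucosal defence, was at 1116 and 3738 CPM in CD44minus and 704 and 1181 in CD44plus. Reg3g, a lectin that kills bacteria, was at 845 and 3098 CPM in CD44minus and 732 and 1241 in CD44plus. The groups overlapped for both. Ccl28, a chemokine for plasma cells, was higher at 30.2 and 35.1 CPM in CD44minus and 110.2 and 105 in CD44plus.

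Eph receptors and ephrins position crypt and villus cells by repulsion, and of 15 tested 3 were higher (20%, beside 19.5% of all genes) and 8 lower (53.3%, beside 30.3%; median -0.98), 4 of the 8 at or above 8 times the predicted background. In the fits without each library there were 3, 3, 2 and 1 higher and 6, 6, 4 and 1 lower. The 3 higher were receptors, and the 8 lower also included receptors, namely Epha1, Epha2, Epha7 and Ephb6. Ephb2 was at 47.9 and 54.3 CPM in CD44minus and 220.1 and 177 in CD44plus. Ephb3 was at 26 and 23.3 CPM in CD44minus and 65.7 and 79.3 in CD44plus. Ephb4 was at 31.1 and 47.4 CPM in CD44minus and 322 and 293 in CD44plus. All 3 had separate groups. Epha1 was lower at 76.4 and 121 CPM in CD44minus and 23.5 and 21.2 in CD44plus (log2 fold change -2.11, SE 0.46, adjusted p = 5.57e-05), with CD44minus reads 12.7 and 37.5 times the predicted background. The ligand Efnb1 was at 61.3 and 94.9 CPM in CD44minus and 87.4 and 73.6 in CD44plus with overlapping groups (adjusted p = 0.92).

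Of 17 BMP, TGF-beta and hedgehog genes, 6 were higher (35.3%) and 5 lower (29.4%), the latter near the 30.3% of all genes. Without each library the counts were 7, 8, 4 and 3 higher and 5, 3, 5 and 0 lower. Ihh, the hedgehog ligand of differentiated epithelium, was at 77.3 and 102 CPM in CD44minus and 35.4 and 21.2 in CD44plus (log2 fold change -1.70, SE 0.46, adjusted p = 0.0011). Bmp2 was at 11.8 and 14.1 CPM in CD44minus and 4.34 and 2.56 in CD44plus. Bmp4 was at 8.40 and 5.02 CPM in CD44minus and 1.64 and 0.365 in CD44plus. Shh was at 17.6 and 8.21 CPM in CD44minus and 3.09 and 1.64 in CD44plus. These 4 were called lower. Only Ihh among these 4 cleared the background limit, at 16.6 and 40.9 times, whereas Bmp2 was at 1.86 and 4.10, Bmp4 at 2.22 and 2.46 and Shh at 3.39 and 2.96 times. Ptch1, which binds hedgehog, was at 17.6 and 15.5 CPM in CD44minus and 54.5 and 46.6 in CD44plus. Tgfbr1 was at 14.3 and 13.7 CPM in CD44minus and 69.6 and 62.1 in CD44plus. Tgfbr2 was at 24.4 and 22.8 CPM in CD44minus and 105 and 119.6 in CD44plus (log2 fold change 2.26, SE 0.51, adjusted p = 9.13e-05). Ptch1, Tgfbr1 and Tgfbr2 were called higher. The BMP target Id1 was at 21 and 50.6 CPM in CD44minus and 36.2 and 21.5 in CD44plus with overlapping groups.

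In the EGF family 2 of 13 were higher (15.4%), the receptor Egfr and its brake Lrig1, and 5 lower (38.5%), beside 19.5 and 30.3% of all genes. Of the 5 lower, 1 cleared 8 times the predicted background in both CD44minus libraries. With each library left out in turn there were 3, 5, 1 and 2 higher and 5, 3, 2 and 2 lower. The ligand Areg, amphiregulin, was lower at 44.5 and 47 CPM in CD44minus and 15.9 and 14.6 in CD44plus (log2 fold change -1.58, SE 0.40, adjusted p = 5.10e-04), with CD44minus reads 17.9 and 35 times the predicted background. The ligand Ereg was called lower at 12.6 and 14.6 CPM in CD44minus and 1.83 and 2.74 in CD44plus, but its CD44minus reads were 1.73 and 3.68 times the predicted background. Erbb3, a co-receptor, was at 263 and 551 CPM in CD44minus and 367 and 313 in CD44plus with overlapping groups.

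Markers of T cells and mast cells were read despite the CD326 gate, and most were higher in CD44plus. Of 20 T cell and intraepithelial lymphocyte genes tested, 16 were higher in CD44plus and 0 lower (median 2.86), and their summed level was 349 and 442 CPM in CD44minus and 2646 and 3956 CPM in CD44plus. Cd3e, part of the T cell receptor complex, was at 15.1 and 19.2 CPM in CD44minus and 153 and 177 in CD44plus (log2 fold change 3.27, SE 0.59, adjusted p = 1.12e-06). Cd8a, the co-receptor of cytotoxic T cells, was at 15.1 and 21.9 CPM in CD44minus and 118 and 163 in CD44plus. Itgae, the integrin that holds lymphocytes in epithelium, was at 35.3 and 40.6 CPM in CD44minus and 299 and 396 in CD44plus. Of 10 mast cell genes tested, 8 were higher and 1, Hdc, which makes histamine, was lower, a call that was lost without any 1 library, with a summed level of 111 and 81.6 CPM in CD44minus and 2098 and 3208 CPM in CD44plus. Mcpt1, a protease of mucosal mast cells (chr14:56017971-56020384, plus strand), was at 3.36 and 3.19 CPM in CD44minus and 1182 and 1889 in CD44plus (log2 fold change 8.89, SE 1.63, adjusted p = 1.46e-06), from 4 and 7 reads in CD44minus. Mcpt2, a close copy, was at 14.3 and 5.93 CPM in CD44minus and 511 and 797 in CD44plus. Cpa3, another mast cell protease, was at 7.56 and 3.19 CPM in CD44minus and 51.3 and 92.9 in CD44plus. Of 17 B, plasma and myeloid genes, 7 were higher and 0 lower, with a summed level of 170 and 124 CPM against 370 and 598 CPM, and without each library 10, 7, 8 and 4 were higher. Beside all 3 lists, the shares over all genes tested were 19.5% higher and 30.3% lower. In all 3 lists the CD44plus library of animal 2 had the highest sum. These values stand beside every group that was higher in CD44plus, and their part in those groups was not tested. Of all markers of these 3 lists, those at 0 reads in any library were the mast cell tryptases Tpsb2 and Tpsab1, both in the CD44plus library of animal 2.

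Of 14 stromal and endothelial genes tested, 2 were higher and 11 lower (median -2.19), and without each library 2, 2, 2 and 1 higher and 7, 10, 9 and 8 lower. The 2 higher were Vim, vimentin, at 10.9 and 6.39 CPM in CD44minus and 169 and 199 in CD44plus, and Pecam1, at 11.8 and 7.30 CPM in CD44minus and 24.2 and 53.9 in CD44plus, both of which leukocytes also make. Among the 11 lower, which include Col1a1, collagen I, at 30.2 and 14.1 CPM in CD44minus and 5.21 and 2.74 in CD44plus, 0 reached 8 times the predicted background in both CD44minus libraries. The same held for the 4 of 6 enteric neuron and glia genes called lower, which include Gfap, a filament protein of glia, at 34.4 and 14.6 CPM in CD44minus and 5.21 and 3.47 in CD44plus. Over all genes tested, 19.5% were higher and 30.3% lower. The summed level of the stromal list was 336 and 179 CPM in CD44minus and 252 and 303 CPM in CD44plus. Both red blood cell genes tested were called lower (2, 0, 1 and 2 without each library). Alas2, which makes heme, was at 6.72 and 12.8 CPM in CD44minus and 1.06 and 0.913 in CD44plus. Beta-s, an allele symbol of beta-globin, was at 2.52 and 65.7 CPM in CD44minus and 0.676 and 17.9 in CD44plus, higher in both libraries of animal 2 than in those of animal 1. Without the CD44minus library of animal 2 its log2 fold change was 1.99, the opposite direction.

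Of 18 unfolded protein response genes tested, 2 were higher and 1 lower, of 17 dissociation stress genes 2 and 0, of 21 cholesterol synthesis genes 6 and 0, and of 9 class II antigen presentation genes 1 and 1. The shares higher were 11.1, 11.8, 28.6 and 11.1%, beside 19.5% of all genes. Without each library the genes called higher numbered 14, 16, 0 and 0 for the unfolded protein response, 8, 15, 2 and 2 for dissociation stress, 9, 15, 0 and 0 for cholesterol synthesis and 2, 6, 1 and 0 for class II. Fos, an immediate early gene that tissue dissociation can raise, was at 384 and 577 CPM in CD44minus and 647 and 477 in CD44plus. Jun, its partner, was at 647 and 1265 CPM in CD44minus and 1409 and 1292 in CD44plus. Neither passed the threshold. With upper quartile factors 0 cholesterol synthesis genes were called in either direction. H2-Aa, a class II chain, was higher at 12.6 and 25.5 CPM in CD44minus and 53.4 and 80.2 in CD44plus. H2-DMb1 of the same list was called lower, and H2-Ab1 was not called, with overlapping groups. Ddit3, the stress factor CHOP, was lower at 37 and 53.8 CPM in CD44minus and 24.2 and 21 in CD44plus.

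**Figure D4:**
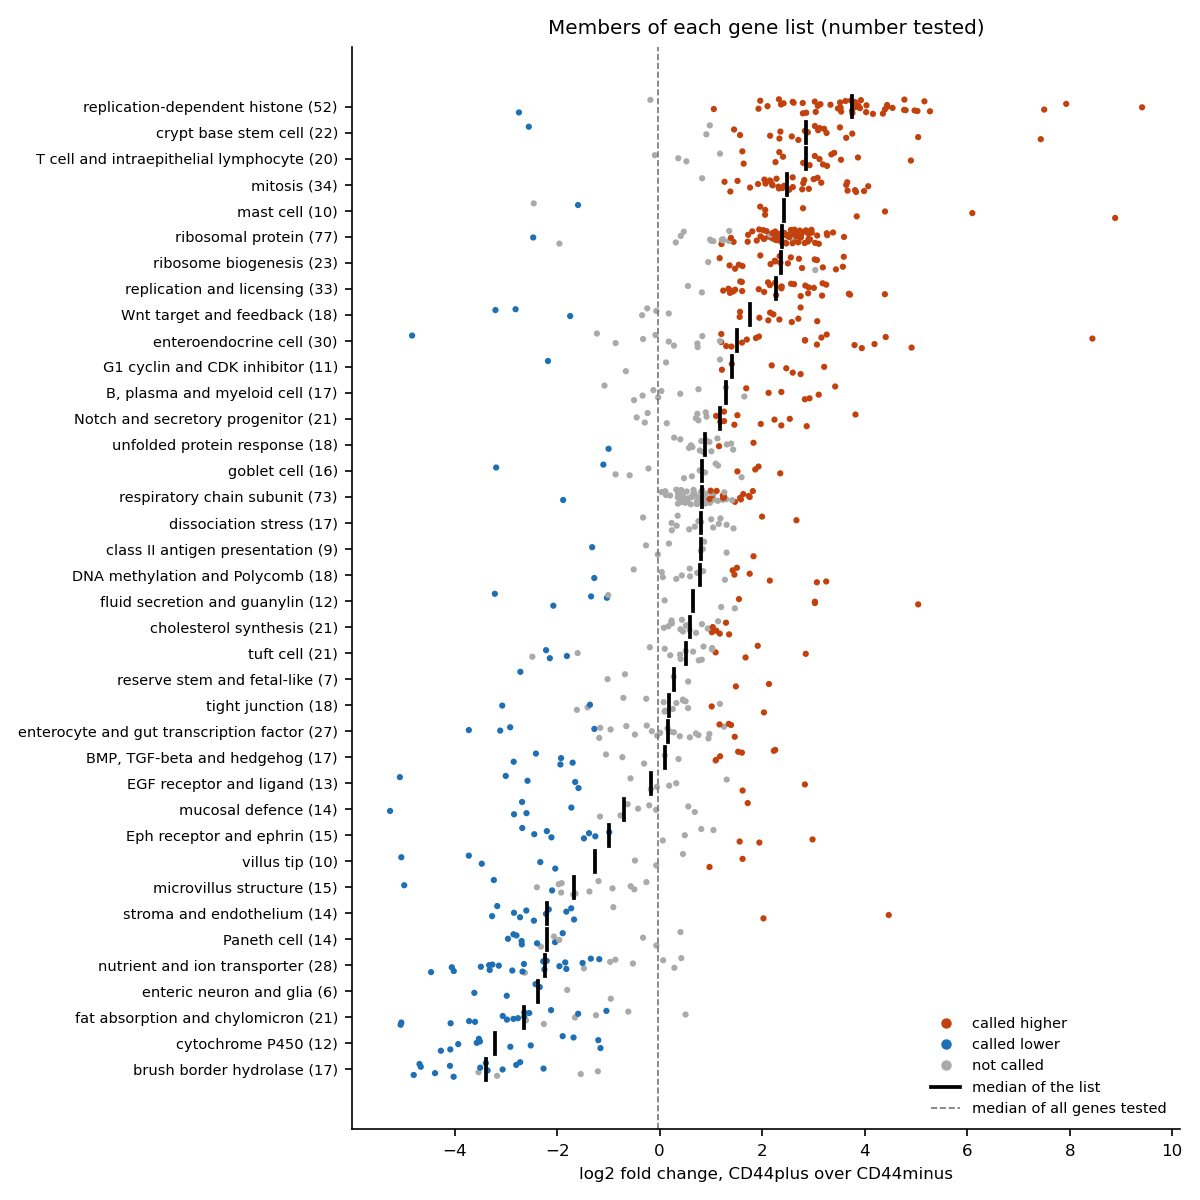
Log2 fold change (CD44plus over CD44minus) of every tested member of each gene list, 1 point per gene, coloured by call, with the list median as a bar and the median of all genes tested as a dashed line. Histone, stem cell and mitosis lists lie to the right, from 2.48 to 3.76, and brush border hydrolase and cytochrome P450 lists to the left, at -3.39 and -3.21.

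Among genes at a mean of 50 CPM or more in the higher gate, the largest differences outside the lists were these. Clca4, a chloride channel regulator family member, was at 28.6 and 94.9 CPM in CD44minus and 2311 and 2166 in CD44plus (log2 fold change 5.38, SE 1.55, adjusted p = 0.0022). Ifitm3, an antiviral membrane protein, was at 0 and 3.65 CPM in CD44minus and 69.5 and 78.9 in CD44plus (adjusted p = 8.41e-15). The other 6 were lower in CD44plus. Clca6, of the same family as Clca4, was at 34.4 and 72.1 CPM in CD44minus and 1.45 and 2.01 in CD44plus. Cubn, the receptor for vitamin B12 bound to intrinsic factor, was at 470.4 and 955 CPM in CD44minus and 26 and 18.3 in CD44plus (log2 fold change -4.93, SE 0.99, adjusted p = 1.13e-05). Enpp7, alkaline sphingomyelinase, was at 104 and 308 CPM in CD44minus and 7.82 and 6.39 in CD44plus (log2 fold change -4.64, SE 0.65, adjusted p = 2.02e-10). Gdpd2 was at 49.6 and 65.2 CPM in CD44minus and 2.03 and 1.64 in CD44plus. Exoc3l4 was at 171 and 389.5 CPM in CD44minus and 10.3 and 10.6 in CD44plus. 2010003K11Rik was at 47 and 93.5 CPM in CD44minus and 3.38 and 0.73 in CD44plus. The same direction in both animals was a condition for naming these 8 genes, and their gates did not overlap.

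The difference between gates was last compared with that in Sox4cKO animals, to ask whether loss of Sox4 changes the contrast between gates. Of 20427 genes tested, 0 had a gate effect that differed between genotypes in edgeR, and 0 in DESeq2. In edgeR 214 had an unadjusted p under 0.05, which is less than a 0.05 share of the genes tested. In the fit of all 8 libraries, the log2 gate effect on Olfm4 was 7.67 in control and 6.41 in Sox4cKO animals (difference 1.26, SE 2.35). For Alpi it was -3.81 and -3.88 (difference 0.07, SE 1.64), and for Sox4 itself 4.04 and 4.51 (difference -0.47, SE 1.09). Without the Sox4cKO CD44minus library of animal 1, 254 genes were called, and without that of animal 2, 0. These leave-out fits had no animal block. The Sox4cKO CD44minus libraries held 1175251 and 6963345 reads counted to genes. Their predicted background was 18.96 and 0.858% of gene reads, and its part in these counts was not tested. A p that misses the threshold with 2 animals per group does not show that the contrasts are alike.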

How the data were processed

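The authors deposited raw read counts per gene, 1 table per library. Per the submitters' processing notes, the tools were bcl2fastq 2.17.4, Trimmomatic 0.36, STAR 2.2.5b and HTSeq 0.6.1p1, with mm10 as the build, and their settings are not given in the sources used here. Whether counting used strand is also unknown, so reads of a gene and its antisense partner cannot be told apart. A stranded low-input kit for total RNA was used, per the labels' protocols.

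Summary lines of the counter were removed. The 4 control libraries were fitted in edgeR 4.0.16 (R 4.3.3) with gate and animal as terms, TMM scaling, filterByExpr with a minimum count of 10, the quasi-likelihood test and Benjamini-Hochberg adjustment at 0.05. Log2 fold changes are CD44plus over CD44minus. With 1 residual degree of freedom per gene, the fit took each gene's spread from the trend over all genes. Each SE is the absolute log2 fold change divided by the square root of the test's F value, so it rests on that trend too. Pairing comes from the animal number that each table's name carries, and deviations of same-numbered libraries from their gate means correlated at 0.1156. The series text calls the animals of a group biological replicates. The procedure was tested on simulated data with few changed genes, balanced in direction, and no background or scale that moved with the gate. That test therefore does not address the background and scaling described above. Alternatives used DESeq2 1.42.0, limma 3.58.1 and other scalings, filters and libraries.

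Predicted background was the smell and pheromone receptor genes' reads per kilobase of coding sequence, times a gene's longest GENCODE M21 transcript. Gene coordinates are GENCODE M21 on GRCm38, and 23006 of 23366 symbols matched (98.5%). Each library's floor of 3 counts, which covers counting error only, is 3.39 and 1.29 CPM in CD44minus and 0.245 and 0.499 CPM in CD44plus. Members and gene lists were chosen with earlier results of these data known. The naming rule took the first 3 of each list and up to 3 further called members per direction by smallest p. To these came the 12 largest called changes per direction at 50 CPM or more with the same direction in both animals. Not every gene of that set is named in the text, and those left out include members that were not called. Tpsb2 and Tpsab1 were named after their values were seen. Values of 2 list members are not reported here.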

Additional observations from a re-analysis of the deposited data

How the results depend on the processing

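Counts of called genes depended on the design, the scaling and single libraries. Without the replicate block, 4397 genes were higher in CD44plus and 5480 lower, against 3512 and 5455 with animals paired. With all 8 libraries and no replicate block the counts were 411 and 91, and with the replicate block and a gate effect per genotype 1506 and 2153. Upper quartile factors gave 1830 higher, and the predicted background subtracted 3095 lower. Of alternatives chosen after seeing the data, a finite prior gave 2309 higher, TMM on abundant genes 1847, and that scaling with the background subtracted 2329. Leaving out 1 control library gave 1426 to 6194 higher and 2230 to 4325 lower. The difference between genotypes ran from 0 to 254 genes without 1 Sox4cKO CD44minus library. The causes were not tested.

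Named genes that changed sign had not been called, except Beta-s and Car4. Log2 fold changes with upper quartile factors were -0.04 for Cdx2, -0.53 for Cldn15, -0.57 for Efnb1, -0.39 for Fos, -0.05 for Jun, -0.15 for Muc2 and -0.07 for Tert. With plain totals they were -0.27 for Cldn15, -0.30 for Efnb1 and -0.13 for Fos. With a mean of at least 10 CPM in 1 group they were -0.25 for Cldn15, -0.28 for Efnb1 and -0.11 for Fos, and with the background subtracted -0.28, -0.25 and -0.15. TMM on abundant genes gave -0.13 for Cdx2, -0.63 for Cldn15, -0.65 for Efnb1, -0.10 for Fcgbp, -0.49 for Fos, -0.15 for Jun, -0.25 for Muc2 and -0.16 for Tert. With the background subtracted as well it gave -0.18 for Cdx2, -0.71 for Cldn15, -0.67 for Efnb1, -0.06 for Epcam, -0.19 for Fcgbp, -0.58 for Fos, -0.24 for Jun and -0.35 for Muc2. A finite prior gave -0.02 for Efnb1. All 8 libraries with the replicate block gave 0.04 for Erbb3 and 0.15 for Mmp7, and no filter on low counts 0.09 and 0.20. Without 1 control library the range was -5.63 to 1.99 for Beta-s, -1.73 to 0.04 for Car4, -1.11 to 0.20 for Cdkn1a, -0.17 to 0.57 for Cldn15, -0.15 to 0.50 for Efnb1, -0.61 to 0.48 for Erbb3, -0.74 to 0.57 for Id1, -0.65 to 0.79 for Mmp7, -0.19 to 1.36 for Muc2, -1.55 to 0.35 for Reg3g and -0.05 to 1.49 for Tert. Among values of named genes under the alternatives, 281 lost a call and 155 gained one.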
